A study of Arabidopsis thaliana with 12 samples.

Results

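Among Arabidopsis thaliana genes with a probe of their own, 18 had higher transcript signal in the prpl11 mutant than in wild type (WT) on every same-numbered pair of arrays. These genes were chosen by their values in this same comparison. A probe had to list exactly 1 gene, lie above 0 on all 12 arrays, be higher in prpl11 in all 6 pairs, and have a mean prpl11 value at least 15% above the mean WT value. Of 653 probes with 1 listed gene that were above 0 on all arrays, covering 652 genes, 66 were higher in prpl11 in 6 of 6 pairs (10.1%) and 23 of these reached the ratio (3.52%). Left aside were 8 genes of photosynthesis, the plastid NDH complex, the Sec translocase, the plastid ribosome and the organellar PPR and mTERF families. Of these, 5 were among the 23 and 3 did not meet the rule, which left the 18. Since these values chose the genes, all intensities and ratios below are a description, and no test was made on them.

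The mutant, in ecotype Columbia 0, lacks PRPL11, the L11 protein of the large plastid ribosomal subunit, and was compared with WT Columbia 0 on 6 arrays of total RNA per genotype. The sources used here give neither tissue, age, growth conditions nor array type. Nothing says that the 6 numbers are separate plants or cultures, so the spread between arrays may be technical. No probe listed PRPL11, which leaves the genotype of the arrays to the labels alone. The values are relative intensities in arbitrary units, which do not rank the transcripts of different probes, with array sums of 3597 to 3678 and array medians of 0.567 to 0.611. In such extracts fewer cells of a type and less RNA per cell cannot be told apart, and no gene of a list for non-green tissue and senescence had a probe of its own.

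Plastids keep their own bacterial-type ribosomes, which translate the proteins encoded in the plastid genome. Ribosomal protein L11 sits near the site where translation factors bind, and nuclear genes supply it together with most other plastid proteins. Leaf plastids also host amino acid synthesis, including the pathway to the branched-chain amino acids.

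Of the 18 genes, 11 could be given a role or a protein family, and 7 are named without one. Those with a role cover plastid metabolism (2 genes), other metabolic enzymes (3 genes), the nucleus and chromatin (2 genes), a mitochondrial respiratory subunit (1 gene), an organelle membrane protein family (1 gene), a wound-responsive protein family (1 gene) and an armadillo repeat protein (1 gene). The ratios of mean intensities, prpl11 over WT, ran from 1.151 to 1.46 with a median of 1.22. The median over all 653 probes was 0.999. All 18 differences were therefore below 2-fold. The opposite rule, WT above prpl11 in 6 of 6 pairs by at least the same ratio, found 48 of the 653 probes (7.35%).

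**Figure D1:**
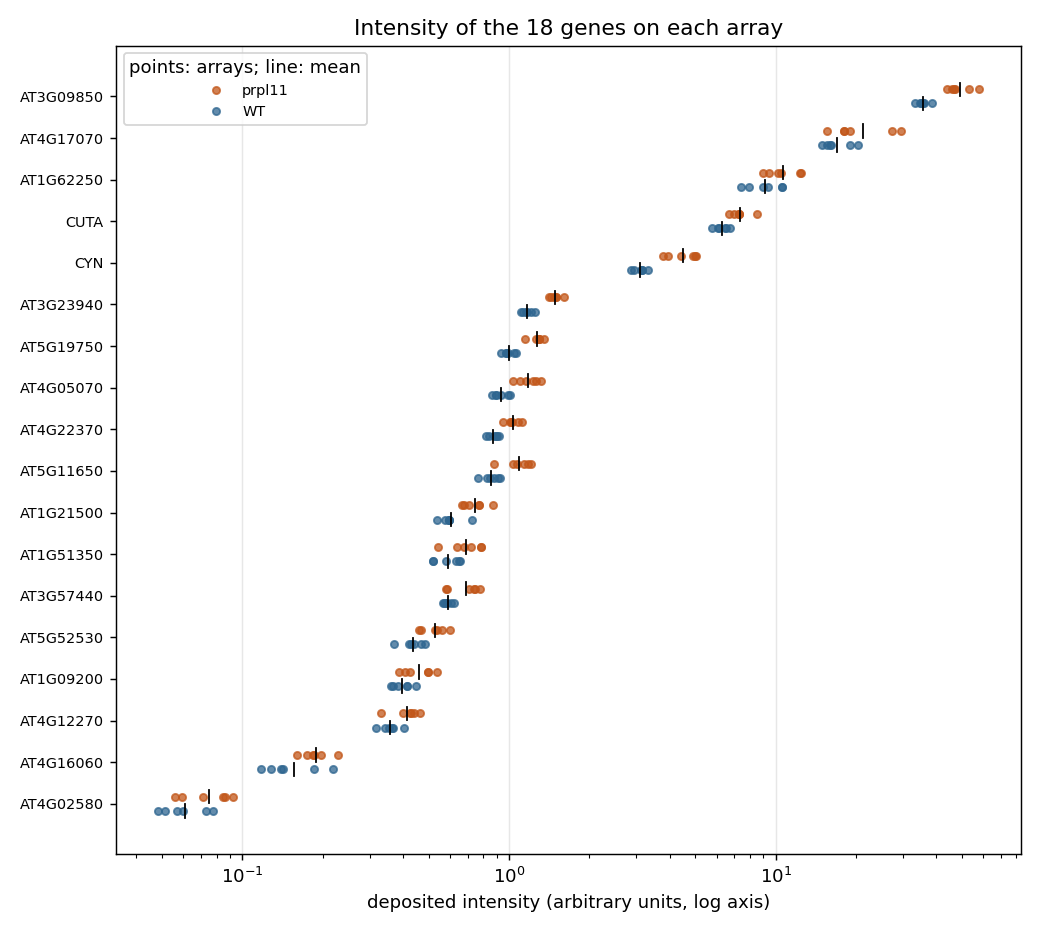
Deposited intensity (arbitrary units, log axis) of the 18 genes on each array, with prpl11 above WT in each row, 1 point per array and a vertical line at the mean of 6. Genes run from AT3G09850 at the top, with a mean of 49.2 in prpl11 and 35.6 in WT, to AT4G02580 at the bottom, with 0.0748 in prpl11 and 0.0611 in WT.

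CYN (AT3G23490) encodes cyanase, a cytosolic enzyme that converts cyanate and bicarbonate to ammonia and carbon dioxide. Its ratio, 1.46, was the highest of the 18. The lowest, median and highest CYN intensities were 3.79, 4.65 and 5.02 in prpl11, against 2.86, 3.14 and 3.32 in WT. Every prpl11 array lay above every WT array. CYN averaged 4.51 ± 0.55 in prpl11 and 3.09 ± 0.17 in WT (SD, n = 6 arrays each), a difference 2.60 times the larger SD. On the log2 scale the 6 pairs gave CYN differences of 0.41 to 0.68, the smallest in pair 1 and the largest in pair 5.

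AT3G23940 encodes dihydroxyacid dehydratase, a plastid enzyme common to the synthesis of valine, leucine and isoleucine. Its intensities were 1.42, 1.49 and 1.60 (lowest, median and highest) in prpl11, against 1.11, 1.16 and 1.26 in WT. The genotypes did not overlap. The means were 1.488 ± 0.064 in prpl11 and 1.173 ± 0.053 in WT (SD, n = 6 each), a ratio of 1.27. Its difference was 4.91 times the larger SD, the largest such multiple among the 18, and its pair differences stayed between 0.22 and 0.43 on the log2 scale. AT3G58610, which encodes ketol-acid reductoisomerase, the enzyme of the preceding step, was the only other gene of 21 on a list of branched-chain amino acid synthesis with a probe of its own. It averaged 0.423 ± 0.014 in prpl11 and 0.407 ± 0.031 in WT (SD, n = 6 each) and was higher in prpl11 in 4 of 6 pairs.

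CUTA (AT2G33740), the second gene of a plastid protein with a stated role, encodes a copper-binding chloroplast protein related to bacterial CutA, which is known in Escherichia coli for tolerance to divalent metals. CUTA intensities were 6.66, 7.28 and 8.48 in prpl11 (lowest, median and highest), against 5.79, 6.30 and 6.77 in WT. The ranges overlapped slightly, with 5 of 6 prpl11 arrays above the highest WT array. CUTA averaged 7.33 ± 0.62 in prpl11 and 6.28 ± 0.36 in WT (SD, n = 6 each), a ratio of 1.17. Its pair differences were among the more even ones, from 0.17 to 0.33 on the log2 scale. Of the 8 genes listed for plastid copper and metal proteins, CCS, the copper chaperone of superoxide dismutase, was the other one with a probe of its own, at 0.215 ± 0.036 in prpl11 and 0.198 ± 0.047 in WT (SD, n = 6 each), higher in 4 of 6 pairs. With each array divided by its median, and with quantile normalization, CCS was higher in all 6 pairs, with ratios of 1.101 and 1.13.

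AT5G19750 belongs to the Mpv17/PMP22 family of small organelle membrane proteins. Its intensities were 1.1504, 1.29 and 1.35 in prpl11 (lowest, median and highest), against 0.931, 0.983 and 1.07 in WT. Again no prpl11 array fell within the WT range. The means of 1.275 ± 0.067 in prpl11 and 0.997 ± 0.050 in WT (SD, n = 6 each) gave a ratio of 1.28 and a difference of 4.13 times the larger SD. None of the other 9 listed family members had a probe of its own.

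The remaining metabolic genes with a family were AT5G11650, of the alpha/beta-hydrolase family, and AT4G12270, of the copper amine oxidase family, whose enzymes oxidise amines such as putrescine. AT5G11650 had 0.879, 1.11 and 1.21 in prpl11 (lowest, median and highest), against 0.763, 0.861 and 0.921 in WT. Only prpl11 replicate 1 fell within the WT range, and the ratio was 1.27. AT4G12270 lay near the ratio limit at 1.16, with 0.330, 0.427 and 0.464 in prpl11, against 0.317, 0.360 and 0.402 in WT. For AT4G12270, 4 of 6 prpl11 arrays were above the highest WT array. The other measured gene of 10 in that oxidase family, AT2G42490, averaged 0.237 ± 0.024 in prpl11 and 0.240 ± 0.020 in WT (SD, n = 6 each), with 3 of 6 pairs higher in prpl11.

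AT4G02580 encodes a subunit of the 24 kDa type of mitochondrial respiratory complex I, the NADH dehydrogenase of the inner membrane. It was the dimmest of the 18 probes, with 0.0560, 0.0779 and 0.0920 in prpl11 (lowest, median and highest), against 0.0481, 0.0585 and 0.0774 in WT. The ranges overlapped, and the difference of means was 0.910 of the larger SD. Its ratio of 1.22 came to 1.05 when 0.236, the 10th percentile of positive intensities, was added to every value. Of the other listed complex I genes, AT5G47890, a B8-type subunit, had a probe of its own, at 0.573 ± 0.034 in prpl11 and 0.554 ± 0.038 in WT (SD, n = 6 each), with 3 of 6 pairs higher in prpl11.

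Among genes of the nucleus, AT3G09850 encodes a protein with a D111/G-patch domain, a motif found in RNA-processing proteins, and AT1G09200 encodes histone H3.1, the histone H3 that is laid down during DNA replication. The AT3G09850 probe was the brightest of the 653. Its intensities were 44.1, 46.9 and 58.1 in prpl11 (lowest, median and highest), against 33.4, 35.4 and 38.6 in WT. The genotypes did not overlap, and the means of 49.2 ± 5.3 in prpl11 and 35.6 ± 1.7 in WT (SD, n = 6 each) gave a ratio of 1.38. The pair differences of AT3G09850 were uneven, from 0.25 to 0.74 on the log2 scale, with the largest values in pairs 5 and 6.

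AT1G09200 stood nearest the limit, with a ratio of 1.151. Its intensities were 0.385, 0.461 and 0.537 in prpl11 (lowest, median and highest), against 0.361, 0.399 and 0.446 in WT. The ranges overlapped, and 3 of 6 prpl11 arrays exceeded the highest WT array. Near-identical histone H3 copies may share this probe. Of 14 listed histone H3 genes, AT1G13370 was also above 0 on all arrays, at 0.632 ± 0.068 in prpl11 and 0.556 ± 0.050 in WT (SD, n = 6 each). AT1G13370 was higher in prpl11 in 5 of 6 pairs, and in 6 of 6 with each array divided by its median or with quantile normalization. AT5G65360, a further copy, was listed at 0 on 11 of 12 arrays.

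AT4G05070 is a member of a wound-responsive protein family. Its intensities were 1.03, 1.19 and 1.31 in prpl11 (lowest, median and highest), against 0.866, 0.914 and 1.01 in WT. All prpl11 arrays lay above all WT arrays, at a ratio of 1.27. AT1G51350, an armadillo repeat protein, had 0.541, 0.699 and 0.788 in prpl11, against 0.517, 0.607 and 0.657 in WT, a ratio of 1.17. For this gene 4 of 6 prpl11 arrays exceeded the highest WT array, and in both genotypes replicate 6 was the lowest.

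**Figure D2:**
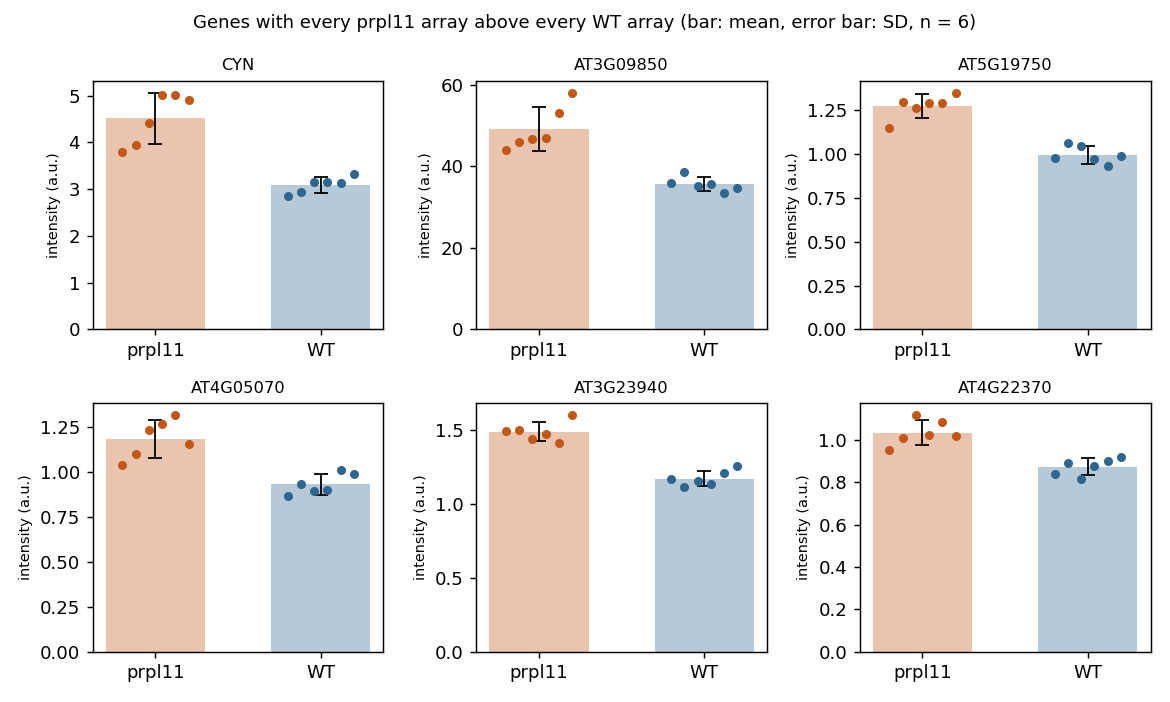
Intensity (arbitrary units, axes from 0) of the 6 genes whose prpl11 arrays all lay above all WT arrays, with a bar for the mean of 6 arrays, an error bar for the SD and a point per array. CYN, at 4.51 in prpl11 against 3.09 in WT, and AT3G09850, at 49.2 against 35.6, show the widest gaps in ratio.

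The 7 genes given no role here were AT4G17070, AT1G21500, AT4G16060, AT5G52530, AT4G22370, AT3G57440 and AT1G62250. AT4G22370 was the only one of them whose genotypes did not overlap, with 0.951, 1.02 and 1.12 in prpl11 (lowest, median and highest), against 0.816, 0.883 and 0.920 in WT. AT1G21500 had 0.667, 0.739 and 0.867 in prpl11, against 0.539, 0.594 and 0.724 in WT, where replicate 5 was the highest array of both genotypes. AT1G62250, with 8.94, 10.4 and 12.4 in prpl11 against 7.43, 9.16 and 10.6 in WT, had overlapping ranges but the most even pair differences of the 18, from 0.13 to 0.27 on the log2 scale. Its intensity moved in both genotypes together from one replicate number to another.

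The other 4 varied more between pairs. AT4G17070 had 15.6, 18.5 and 29.4 in prpl11 (lowest, median and highest), against 14.9, 16.1 and 20.4 in WT, and its 2 highest prpl11 arrays were replicates 1 and 2. AT5G52530 had 0.460, 0.534 and 0.598 in prpl11, against 0.370, 0.434 and 0.483 in WT, with a difference of 0.0040 on the log2 scale in pair 3. Values of AT3G57440 were 0.578, 0.725 and 0.776 in prpl11 and 0.565, 0.583 and 0.623 in WT. Replicates 5 and 6 were the lowest prpl11 arrays of AT3G57440 and the only ones inside the WT range. AT4G16060, a dim probe, had 0.160, 0.185 and 0.229 in prpl11, against 0.117, 0.141 and 0.219 in WT, and 1 of 6 prpl11 arrays exceeded the highest WT array.

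Set against the spread between arrays, 15 of the 18 differences of means were larger than the larger of the 2 SDs, as was the case in the same direction for 64 of the 653 probes (9.80%). The same values chose the 18, so nothing is read from that count. The exceptions were AT4G02580, AT4G16060 and AT4G17070. For 6 of the 18, CYN, AT3G09850, AT5G19750, AT4G05070, AT3G23940 and AT4G22370, every prpl11 array was above every WT array. Among all 653 probes this held for 8 (1.23%), the other 2 being genes left aside. The spread of log2 values was wider in prpl11 than in WT for 15 of the 18 genes, and for 64.3% of the 653 probes.

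The size of the difference varied between array pairs. Array numbers 1 and 2, 3 and 4, and 5 and 6 were more alike than others of the same genotype, with a median absolute log2 difference of 0.08 against 0.16, and are treated as 3 sets. The median of the 18 log2 differences was 0.27 in the first set, 0.34 in the second and 0.28 in the third, while the median over all 653 probes was 0.05, -0.05 and -0.03. The rule asked for a higher prpl11 value in each pair, so only the sizes differ here. For 12 of the 18 the first set gave the smallest difference, and for 8 the second gave the largest. How often each set came smallest or largest among the 653 probes was not counted. AT3G09850 had 0.27, 0.41 and 0.70 on the log2 scale in the 3 sets, whereas AT4G17070 had 0.53, 0.23 and 0.11, and AT3G57440 had 0.30, 0.34 and 0.02. In every pair the difference was at least 0.2 for 5 genes, CYN, AT3G09850, AT5G19750, AT4G05070 and AT3G23940, and in 7 of the 18 at least 1 pair lay under 0.1. The same pair values chose the 18, and these counts were not made over the 653 probes, so nothing is read from them.

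**Figure D3:**
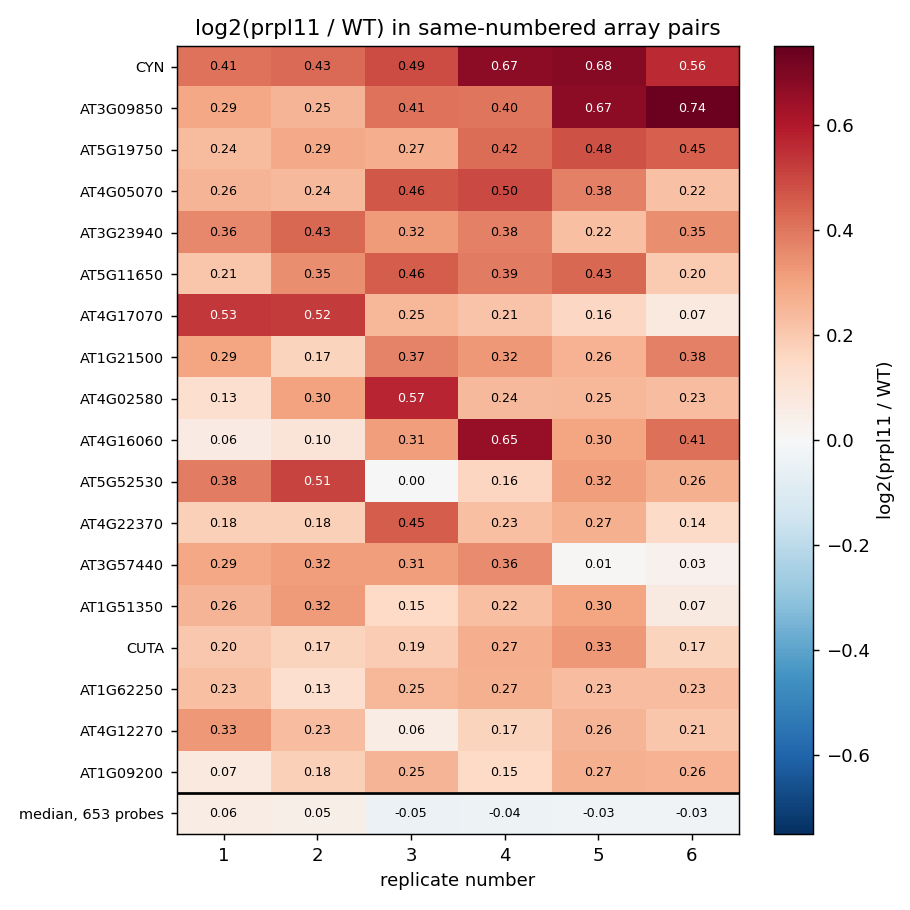
Difference log2(prpl11 / WT) for each of the 18 genes (rows, by falling ratio) in the 6 same-numbered array pairs (columns), with the median of all 653 probes in the bottom row. CYN stays between 0.41 and 0.68, AT3G09850 is highest in pairs 5 and 6, and AT4G17070 in pairs 1 and 2.

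Of the 653 probes, 16 had a mean intensity of at least 3, a limit set after the values were seen, and these included 5 of the 18 genes (AT3G09850, AT4G17070, AT1G62250, CUTA and CYN) and 3 of the genes left aside. The other 8 had ratios of 0.675 to 1.05, with a median of 0.939, but genes chosen for a high ratio had been taken out. Over all 16 the median ratio was 1.08, with 9 higher in prpl11 in 6 of 6 pairs and 5 lower. Among the 653 probes 10.1% were higher and 13.0% lower. With quantile normalization AT3G09850 and CYN still met the rule and AT4G17070 did not.

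**Figure D4:**
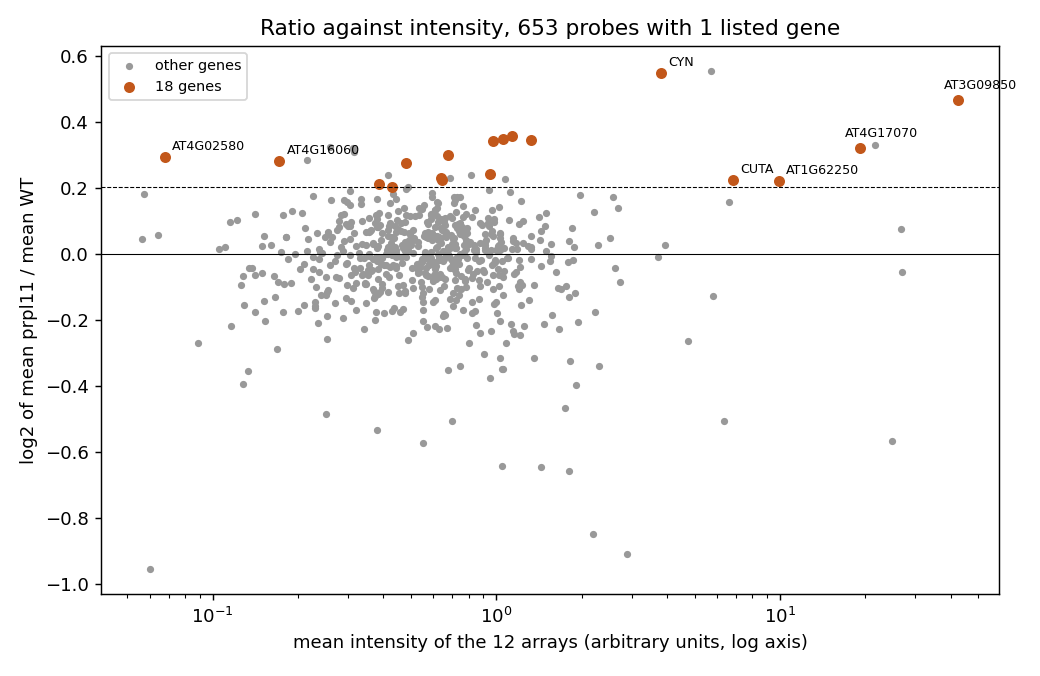
Log2 of mean prpl11 over mean WT intensity against the mean intensity of the 12 arrays (log axis) for 653 probes with 1 listed gene, the 18 genes in orange, the ratio limit as a dashed line. The 5 bright genes of the 18 lie above the line, and the 8 probes of at least 3 that are neither among the 18 nor left aside have ratios of 0.675 to 1.05. All 16 probes of at least 3 have a median ratio of 1.08.

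Differences were correlated between probes whose numbers lay 6 or 288 apart, steps found from the data, at 0.21 (2601 probe pairs) and 0.24 (2450 probe pairs). Probes at these steps are called neighbours, and what the numbering stands for is not stated in the sources used here. The 18 genes had 56 measured neighbours, of which 9 (16.1%) were higher in prpl11 in 6 of 6 pairs, against 10.7% around all 653 probes. The median over genes of the neighbours' log2 difference was 0.00 for the 18 and -0.01 for all. AT1G62250 had 2 such neighbours among 3, with a median log2 difference of 0.13. At least 1 neighbour higher in 6 of 6 pairs was found for 8 of the 18 genes. The same held for 177 of all 645 probes that had a measured neighbour. AT3G09850, AT5G19750, AT4G05070 and AT3G23940 were among the genes with none, and CYN had 1 of 3. The part of position in these results was not tested.

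The genes were spread over all 5 chromosomes, with 6 of 18 on chromosome 4 (33.3%), which carries 18.1% of the probes placed on chromosomes in the TAIR10.1 gene table. CYN and AT3G23940 were the closest pair, both on chromosome 3 with 48 protein-coding genes between them. Among the nearest measured genes of the 18 along the chromosome, 2 were higher in prpl11 in 6 of 6 pairs, 3 were lower and 13 were mixed. Of the 653 probes 10.1% were higher and 13.0% lower, and nothing is read from these counts. The 2 higher ones were AT3G23940 beside CYN, itself among the 18, and AT5G11550 beside AT5G11650. AT4G05030, with 3 genes between it and AT4G05070, had a ratio of 0.715, and AT1G21660, with 16 genes between it and AT1G21500, a ratio of 0.633.

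After subtraction of the genotype means, the 153 pairs among the 18 genes had a median correlation of 0.09 over the 12 arrays, close to the 0.04 over all pairs of the 653 probes. The closest pair was AT4G02580 with AT1G09200, at 0.93, and the most opposed was CYN with AT4G17070, at -0.94. By this measure the 5 genes most like CYN were AT2G40980, AT1G74070, AT4G20300, AT5G40030 and AT5G35100, with correlations of 0.84 to 0.94. None of them was among the 18, which are few of the 653 probes, so nothing is read from that. All genes share these 12 arrays and their sets.

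Just inside the limit lay AT1G51350, CUTA, AT1G62250, AT4G12270 and AT1G09200, with ratios of 1.168 down to 1.151. Just outside it lay AT5G59060, AT2G21720, AT3G56010, AT3G44570 and AT4G03090, also higher in 6 of 6 pairs, with ratios of 1.149 down to 1.133. The border of the list therefore runs through a continuous range of ratios.

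Genes were looked up in 13 lists with 151 genes, which are not complete. Some lists cover a pathway or family of a gene among the 18. Those of plastid translation factors, organellar tRNA synthetases, plastid chaperones, Clp protease, protein import, and non-green tissue and senescence hold none of the 18. Of the 151 genes, 16 had a probe of their own above 0 on all arrays, and 7 were among the 18. Of the other 9, none was higher in prpl11 in all 6 pairs and 1 was lower. Among the 9, Cpn60beta3, Cpn60beta4, AT4G33760 and AT1G68660 come from lists that hold none of the 18. Of the 653 probes 10.1% were higher and 13.0% lower, but these shares include the 18. The 9 had the 18 taken out, so the counts are not alike and nothing is read from them. Cpn60beta3, Cpn60beta4 and AT5G47890, all among the 9, joined their lists after their values had been seen. The ratios of all 9 ran from 0.893 to 1.14 with a median of 1.03. The lower one was Cpn60beta3, a beta subunit of the plastid chaperonin, at 0.413 ± 0.058 in prpl11 and 0.462 ± 0.058 in WT (SD, n = 6 each). Cpn60beta4, of the same family, had a ratio of 0.965 and was higher in prpl11 in 1 of 6 pairs. AT4G33760, an organellar aspartyl-tRNA synthetase, had a ratio of 1.05, and AT1G68660, a ClpS-type adaptor of the plastid Clp protease, had 1.01. No gene listed under plastid translation factors, plastid protein import or non-green tissue and senescence had a probe of its own.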

How the data were processed

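Total RNA of 6 prpl11 and 6 WT arrays was measured, and the deposited table of 3439 probes holds linear intensities, 1 for each array. How the authors scaled the values and corrected background, and on which array and scanner, is not given in the sources used here. Precision is limited by the number of arrays. Of the probes, 692 list 1 gene, 870 several and 1877 none in the platform's gene table, and 690 of the 692 were found in the TAIR10.1 table, used for symbols and gene order only. Probes with none are left unnamed. Values were used as deposited, and 39 probes with 1 gene were left out because they were 0 on at least 1 array. Ratios are of mean intensities, and log2 differences are of same-numbered arrays. Deviations from the genotype means of same-numbered arrays correlated at 0.545 to 0.782 over the 653 probes, above those with any other number for 6 of 6 prpl11 arrays. The labels themselves do not say what a number stands for.

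Members and lists were chosen with earlier results of these data known. Of the 13 lists, 3 (histone H3, complex I and copper amine oxidases) were added after the 18 genes were known. Cpn60beta3, Cpn60beta4 and AT5G47890 joined their lists after their values had been seen. All 18 are named, with the lowest, median and highest value of each genotype. Likeness is the Pearson correlation of log2 values after subtracting genotype means. Roles come from general knowledge of the genes. Python 3.11.15 with numpy 2.4.6, pandas 2.3.3 and matplotlib 3.10.9 was used. The code of the rule was checked on simulated data, with changes larger than the mean log2 difference of any of the 18. Arrays were drawn independently there, so the check does not cover smaller changes or the likeness of same-numbered arrays and sets. Alternatives were other scalings, ratio limits, filters, a pseudocount and leaving out arrays.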

Additional observations from a re-analysis of the deposited data

Results flagged for a closer look

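In 36 groups of 6 arrays, formed by the 18 genes in both genotypes, 1 had an array that stood apart from the rest. Chance flags about 1 in 20 groups, here 1.8. WT replicate 5 of AT1G21500 had an intensity of 0.724, against 0.539 to 0.596 on the other WT arrays, a gap of 0.661 of the whole range on the log2 scale. The prpl11 array with the highest value, 0.867, also had number 5. Without that WT array alone the ratio of AT1G21500 was 1.28 in place of 1.23. With number 5 left out of both genotypes it was 1.24.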

How the results depend on the processing

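The list depended most on the ratio limit: 39 genes met the rule at a limit of 1.1, 11 at 1.2 and 2 at 1.3. A pseudocount of 0.236 left 10, the demand that all prpl11 arrays exceed all WT arrays left 6, leaving out replicates 3 and 4 gave 31, and the opposite direction held 48. With 1 replicate number left out of both genotypes at a time, 18 to 23 genes met the rule, including 16 to 18 of the 18. Median scaling gave 23 genes and quantile normalization 27, with 18 and 17 of the 18 among them. Scaling within 5 classes of intensity, chosen after seeing the data, gave 23 with 16 of the 18, and leaving out genes beside another that met the rule gave 14. CYN, AT3G09850, AT5G19750, AT4G05070 and AT3G23940 stayed in the list under all 21 settings other than the limits and the opposite direction. AT1G09200 stayed under 13. These settings reapply the rule to the values that chose the genes. Allowing values of 0 or averaging neighbouring numbers could not lose a gene, so the counts describe the list and do not test it. The median ratio of the 18, 1.22, was 1.25 with quantile normalization, 1.16 with the pseudocount and 1.21 to 1.23 with 1 number left out. All 234 recomputed ratios of single genes stayed above 1, and 3 moved by more than the SD between pairs. A ratio above 1 was fixed by the rule for other averages, the pseudocount and replicates left out. Only the other scalings could have given a ratio below 1. Of the 9 listed genes outside the 18, 0 were higher in all pairs on deposited values. With median scaling or quantile normalization 2 were, CCS and AT1G13370. The cause was not tested. Dim probes, AT4G02580 and AT4G16060 in particular, carry the least certain ratios, since no measure of background was used here.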

Other observations

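The same rule was met by 29 of 830 probes that list several genes (3.49%) and by 72 of 1800 probes with no listed gene (4.0%), against 23 of 653 with 1 listed gene (3.52%). The genes behind those probes are not named here.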
